A study of Arabidopsis thaliana with 6 samples.

Results

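The loci whose AGO1-bound small RNAs depend on the Dicer-like nuclease DCL2, and those with more of them in its absence, were sought by comparing ein5 dcl4 dcl2 with ein5 dcl4 plants of Arabidopsis thaliana. All 32420 loci of the table were considered, in 4 of the 6 libraries of the series. The triple mutant carried ein5-1, dcl4-2 and dcl2-1, the double mutant ein5-1 and dcl4-2, and wild-type Col-0 gave a further 2 libraries for orientation. Both mutants thus lacked EIN5 and DCL4, and DCL2 was the difference between them. Each mutant was 1 combination of alleles, mutated in the whole plant, and plants lacking DCL2 alone were not analysed here. AGO1 and its bound small RNAs were collected by immunoprecipitation from aerial parts at 20 days of age, after 6 days on medium and 14 days on soil, with 2 biological replicates of each genotype and no treatment. Small RNA reads give no marker of the tissue, which was therefore not checked.

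ARGONAUTE1 (AGO1) holds a small RNA and uses it to find complementary transcripts, which it cleaves or keeps from being translated. Most plant miRNAs are cut by DCL1 from hairpin precursors. DCL4 and DCL2 cut siRNAs from long double-stranded RNA, DCL2 making the slightly longer ones, and the exonuclease EIN5, or XRN4, clears uncapped mRNA in the cytoplasm before it can become a template for double-stranded RNA.

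A value is the number of small RNA reads at a locus divided by a size factor of its library, in the deposited unit, which is called a unit here. It is counted per locus and not per length, so an order of genes is an order of reads. It measures AGO1-bound small RNA from the locus and not the mRNA, and less small RNA cannot be told apart from less loading or from fewer cells of a type in these bulk samples. The 2 recovered libraries of each genotype, a and b, held 1102996 and 843408 reads in ein5 dcl4 dcl2, 1292727 and 836879 in ein5 dcl4, and 1217707 and 957043 in Col-0. A single read equalled 1.71 and 1.9 units in the triple mutant's libraries and 1.92 and 2.79 units in those of the double mutant, so the limit set by a count of 0, 3 reads, lay between 5.12 and 8.37 units. Such limits cover counting error only. In Col-0 a read weighed less, 0.185 and 0.257 units, and Col-0 levels are given beside the others for orientation, without a test. The mutated loci held few small RNAs and do not check the genotypes: DCL2 had 0 and 0 reads in ein5 dcl4 dcl2 and 0 and 2 in ein5 dcl4, DCL4 had 4 and 2 in ein5 dcl4 dcl2 and 4 and 8 in ein5 dcl4, and EIN5 had 0 and 0 in ein5 dcl4 dcl2 and 0 and 1 in ein5 dcl4.

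Without DCL2, the AGO1-bound small RNA of the loci counted, which do not include TAS loci, came almost not at all from protein-coding genes and mostly from miRNA loci. Protein-coding genes held 1.44% ± 0.133 in ein5 dcl4 dcl2, 94.6% ± 0.75 in ein5 dcl4 and 15.2% ± 0.917 in Col-0 (SD, n = 2 each) of the table total. The miRNA loci held 96.2% ± 0.347 in ein5 dcl4 dcl2, 4.25% ± 0.783 in ein5 dcl4 and 66.9% ± 1.91 in Col-0. MIR166e, MIR166f and MIR166g had nearly equal values, which could come from the same reads. With these counted once, the miRNA share was 93.8% ± 0.392 in ein5 dcl4 dcl2, 3.20% ± 0.418 in ein5 dcl4 and 57.2% ± 1.82 in Col-0. Pseudogenes held 2.05% ± 0.191 in ein5 dcl4 dcl2, 1.04% ± 0.0278 in ein5 dcl4 and 16.1% ± 0.901 in Col-0. For each of the 3 classes, both ein5 dcl4 dcl2 libraries lay apart from both ein5 dcl4 libraries, and the miRNA share of the triple mutant was above Col-0 as well. The exact two-sided permutation p was 0.333 for each, the smallest that 2 libraries against 2 allow.

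**Figure D1:**
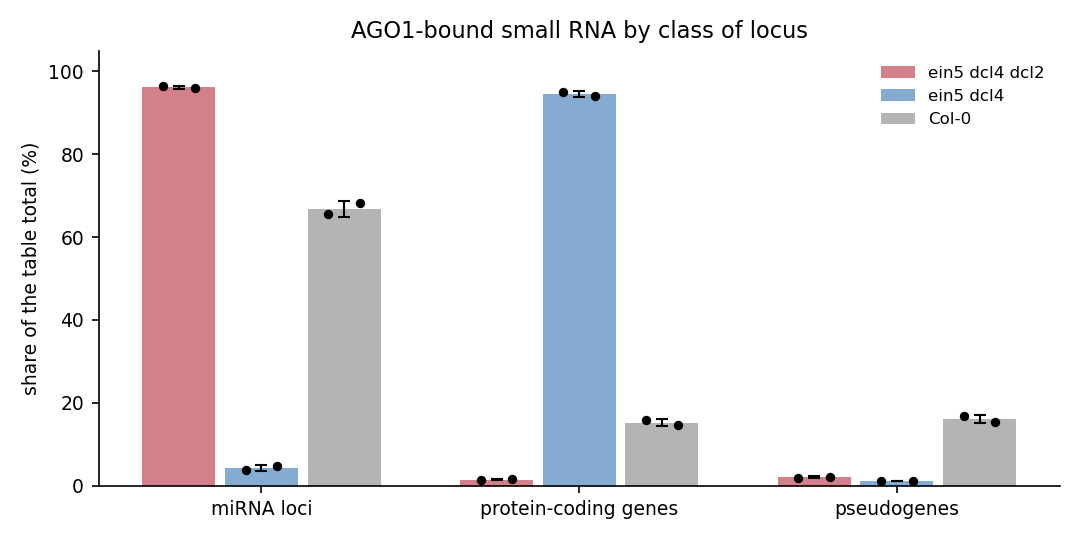
Share of the table total (%) by class of locus in ein5 dcl4 dcl2, ein5 dcl4 and Col-0, for miRNA loci, protein-coding genes and pseudogenes. Bars are means of 2 libraries, error bars the SD and points the libraries. The miRNA share was 96.2% in ein5 dcl4 dcl2, against 4.25% in ein5 dcl4.

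Of the 32420 loci, 4189 had at least 10 reads over the 4 libraries and were tested with limma on log2(value + 1), called at a Benjamini-Hochberg adjusted p under 0.05. In ein5 dcl4 dcl2, 1708 loci were lower (40.8% of those tested) and 723 were higher (17.3%), 58.0% in all. At every called locus the 2 libraries of one genotype lay above both of the other. A call from 2 libraries against 2 nearly requires this, and loci without a call, such as AT5G38850 and AFB3, were separated too. The separation therefore adds no support to the calls. A locus with few reads could pass the 10-read filter only through the genotype in which it was high. The decreases were the larger changes: 55 loci fell by 1000-fold or more on the log2(value + 1) scale, and 0 rose by as much. Of the lower loci 609 had no read in either ein5 dcl4 dcl2 library, and of the higher loci 165 had none in either ein5 dcl4 library. Such zeros need not be large changes, since 478 protein-coding genes tested without a read in ein5 dcl4 dcl2 held 10 to 30 units in ein5 dcl4. The smallest differences called were 0.61 downwards and 0.686 upwards on that scale. The 2 directions were split by class. Among 2318 protein-coding genes tested, 1616 were lower (69.7%), 162 higher and 540 not called, with a median log2 difference of -3.10. Among 116 miRNA loci tested, 103 were higher (88.8%), 2 lower and 11 not called, with a median of 3.82. The median over all loci tested was -0.84.

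These counts are relative to the size factors, which 2300 loci with reads in all 6 libraries set, 1322 of them pseudogenes. With equal table totals 1485 loci were lower and 963 higher (60.7% of calls lower, against 70.3%). With libraries set to an equal sum over miRNA loci, which shifted the median of all loci by -3.24 on the log2 scale, 3440 were lower and 173 higher (95.2% of calls lower). Equal table totals moved the median of all loci by 0.46, which is small beside the decreases of the strongest siRNA genes, whereas the numbers of miRNA loci and pseudogenes called higher depend on the scale.

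**Figure D2:**
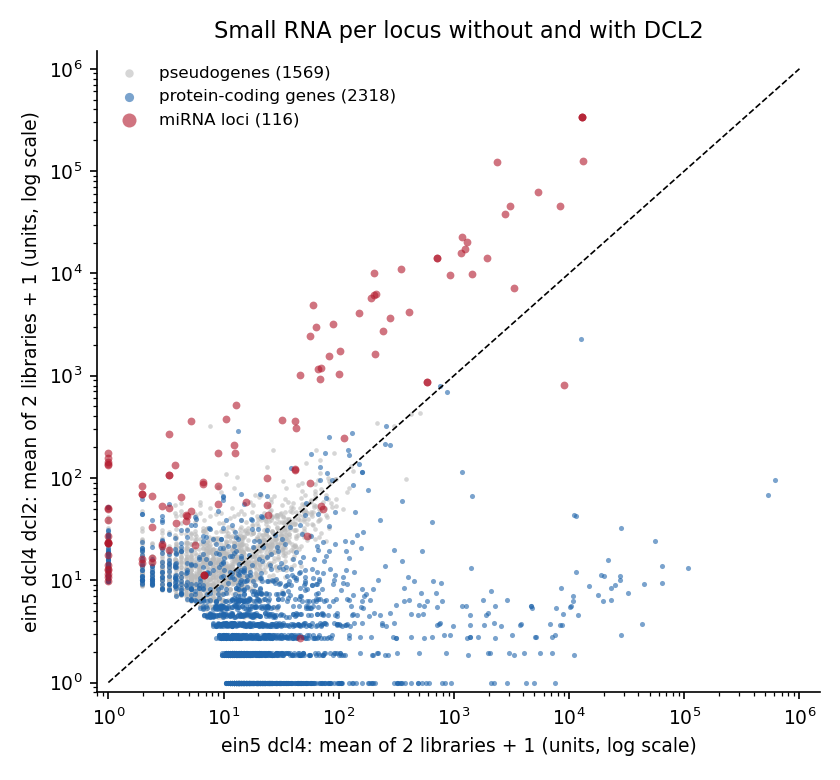
Mean of 2 libraries + 1 per tested locus in ein5 dcl4 dcl2 (vertical) against ein5 dcl4 (horizontal), in units on log scales, with the dashed line marking equal values. Most miRNA loci lie above the line, and the 83 protein-coding genes of at least 1000 units in ein5 dcl4 lie below it, 80 of them with under 1% of that level left.

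The genes that made most of the small RNA in ein5 dcl4 lost nearly all of it without DCL2. Protein-coding small RNA there was concentrated, with 2 genes, the nitrate reductases NIA2 and NIA1, holding 50.4% of it, 10 genes 69.8% and 83 genes 94.7%. Summed over those 83 genes, which are the genes of at least 1000 units in ein5 dcl4, the level was 3098 units in ein5 dcl4 dcl2, against 2153790 units in ein5 dcl4 and 13228 units in Col-0. A single gene, AT3G06435, held most of the first and last of these sums, and without it they were 794 units in ein5 dcl4 dcl2, 2141200 units in ein5 dcl4 and 317 units in Col-0. All 83 were called lower. Under 1% of the ein5 dcl4 level was left at 80 of them and under 0.1% at 59, and 36 had 3 reads or fewer in both ein5 dcl4 dcl2 libraries together. At 68 of the 83 the ein5 dcl4 dcl2 mean was above the Col-0 mean in units. A read weighed 1.71 and 1.9 units in ein5 dcl4 dcl2 and 0.185 and 0.257 units in Col-0, so equal reads give the higher value in ein5 dcl4 dcl2. SMXL5, with 1 and 2 reads in both genotypes, had means of 2.75 and 0.349 units. The count of 68 therefore gives no order of the 2 genotypes. The study picked NIA1, NIA2, SMXL4 and SMXL5 as siRNA loci from these libraries, so their counts below are not independent evidence of a direction. In the gene lists below, members with no read in ein5 dcl4 dcl2 could pass the 10-read filter only through ein5 dcl4, which fixed their direction. Members with few reads there, such as SMXL4 and NIR1, passed only through ein5 dcl4 as well. Members with reads in ein5 dcl4 alone of these 2 genotypes were 2 of 10 nitrate assimilation, 2 of 8 SMXL and 7 of 16 HSP70 genes. They were also 1 of 7 HSP90, 8 of 12 GTE and 2 of 10 glucosinolate genes. These counts are over all listed members, tested or not. Of the tested GTE genes, only GTE7 and GTE2 had a read in ein5 dcl4 dcl2. The numbers of tested members lower are therefore fixed in part by the filter, also where they are set beside the share over all protein-coding genes.

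Nitrate assimilation is the pathway that takes up nitrate and reduces it to ammonium and glutamate, and 8 of its 10 listed genes were tested and all 8 were lower (median log2 difference -5.47, against -3.10 and 69.7% lower for all protein-coding genes tested). NIA1, the nitrate reductase gene at chr1:29235721-29239484, minus strand (RefSeq annotation of TAIR10.1), had 41 and 93.1 units in ein5 dcl4 dcl2 libraries, against 552318 and 509158 units in ein5 dcl4 libraries. NIA2, which encodes the major nitrate reductase of the shoot (chr1:14158452-14161938, plus strand), had 51.2 and 137 units in ein5 dcl4 dcl2, against 639686 and 593772 units in ein5 dcl4. The genotypes lay about 4 orders of magnitude apart at both genes, and 0.0126% of the NIA1 level and 0.0152% of the NIA2 level was left (log2 differences -13.04, SE 0.52, and -12.83, SE 0.52; limma adjusted p = 5.70e-05 and 5.70e-05). Their Col-0 means were 6.61 and 9.19 units. GLT1, the NADH-dependent glutamate synthase, had 8.54 and 1.9 units in ein5 dcl4 dcl2, against 778 and 803 units in ein5 dcl4 (log2 difference -7.23, SE 0.69, adjusted p = 0.000512). NIR1, the nitrite reductase that takes the product of NIA1 and NIA2, had 3.42 and 0 units in ein5 dcl4 dcl2, against 136 and 109 units in ein5 dcl4 (log2 difference -5.87, SE 0.76, adjusted p = 0.00161). UPM1, which makes the precursor of the siroheme that nitrite reductase needs, had no read in ein5 dcl4 dcl2, against 34.5 and 30.7 units in ein5 dcl4, and so was at least 6.02-fold lower when 3 reads per library stand for 0. The other members called lower were the ferredoxin-dependent glutamate synthase GLU1, the plastid glutamine synthetase GLN2 and the nitrate transporter NRT1.1, with log2 differences of -2.26, -2.78 and -2.79. Without ein5 dcl4 library b, 5 of the 8 were called.

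The SMXL proteins are repressors in karrikin and strigolactone signalling (SMAX1, SMXL2 and SMXL6 to SMXL8) or act in phloem formation (SMXL3 to SMXL5). Of 8 genes, 7 were tested and all 7 were lower (median -5.10), against 69.7% of all protein-coding genes tested (median -3.10). SMXL5 (chr5:23144947-23149615, plus strand) had 1.71 and 3.8 units in ein5 dcl4 dcl2, against 41952 and 43346 units in ein5 dcl4 (log2 difference -13.53, SE 0.33, adjusted p = 1.61e-05). SMXL4 had 1.71 and 0 units in ein5 dcl4 dcl2, against 10732 and 11138 units in ein5 dcl4 (log2 difference -12.70, SE 0.55, adjusted p = 7.39e-05). SMXL7 had 5.12 and 0 units in ein5 dcl4 dcl2, against 2666 and 2446 units in ein5 dcl4 (log2 difference -10.01, SE 0.85, adjusted p = 0.000371). The libraries of the triple mutant held at most 3 reads at any of these 3 genes. The other members called lower, SMAX1, SMXL3, SMXL2 and SMXL6, were between 23.7 and 132 units on average in ein5 dcl4.

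Chaperone genes were lower as well. HSP70 proteins bind unfolded polypeptides, and 14 of the 16 listed genes were tested and all 14 were lower (median -4.93). Over all protein-coding genes tested, 69.7% were lower (median -3.10). The cytosolic gene AT3G09440, which the list calls HSC70-3, had the largest decrease of all loci named by rule, with 0 and 3.8 units in ein5 dcl4 dcl2, against 28636 and 27536 units in ein5 dcl4 (log2 difference -13.65, SE 0.72, adjusted p = 0.000125). The heat-inducible gene HSP70 (AT3G12580) had 3.42 and 13.3 units in ein5 dcl4 dcl2, against 67541 and 60781 units in ein5 dcl4 (log2 difference -12.98, SE 0.54, adjusted p = 6.16e-05). Hsp70-2 had no read in ein5 dcl4 dcl2, against 7883 and 7169.9 units in ein5 dcl4, which made it at least 1391-fold lower. The organelle members were also called lower, from mtHsc70-2 of mitochondria (log2 difference -10.22) to cpHsc70-1 of plastids (-2.36, adjusted p = 0.0474). Of the 21-base stretches of AT3G09440, HSP70 and Hsp70-2, 3.89%, 1.61% and 13% occur elsewhere in the genome, and of those of BIP1 and BIP2 47.9% and 47.2%.

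HSP90 proteins help signalling proteins to fold, and 4 of 5 tested genes of 7 listed were lower (median -11.01), the 4 cytosolic genes. This count is close to the 69.7% of all protein-coding genes tested that were lower. HSP90.1, the heat-inducible one, had 1.71 and 11.4 units in ein5 dcl4 dcl2, against 30509 and 33889 units in ein5 dcl4 (log2 difference -12.44, SE 0.73, adjusted p = 0.000183). HSP81-2, HSP81-3 and Hsp81.4, which lie next to one another on chromosome 5, had log2 differences of -11.46, -10.62 and -11.01. Between 38.3% and 48.1% of their 21-base stretches occur elsewhere in the genome, so these 3 genes may share reads. The endoplasmic reticulum member HSP90.7 was not called, with 3.42 and 1.9 units in ein5 dcl4 dcl2, against 13.4 and 5.58 units in ein5 dcl4 (adjusted p = 0.0576).

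GTE genes encode bromodomain proteins that bind acetylated histones, and all 6 tested of 12 listed were lower (median -5.12). The share lower over all protein-coding genes tested was 69.7% (median -3.10). GTE7 (chr5:26225832-26229574, minus strand) had 5.12 and 19 units in ein5 dcl4 dcl2, against 109629 and 104183 units in ein5 dcl4 (log2 difference -13.24, SE 0.54, adjusted p = 5.71e-05). GTE2 (chr5:3332995-3334913, minus strand) had 6.83 and 19 units in ein5 dcl4 dcl2, against 67681 and 60525 units in ein5 dcl4 (log2 difference -12.32, SE 0.58, adjusted p = 8.54e-05). It overlaps AT5G10540 on the opposite strand, whose 7167 units in ein5 dcl4 may hold reads of GTE2, since the sources used here do not say whether the counting used strand. Enzymes of glucosinolate synthesis, the route to mustard oil defence compounds, were lower at all 6 tested of 10 listed (median -4.68), beside the same 69.7%. CYP79B2, which turns tryptophan into indole-3-acetaldoxime, had 8.54 and 7.6 units in ein5 dcl4 dcl2, against 23824 and 26357 units in ein5 dcl4 (log2 difference -11.43, SE 0.20, adjusted p = 1.11e-05). Its close relative CYP79B3 had 12 and 3.8 units in ein5 dcl4 dcl2, against 14051 and 15631 units in ein5 dcl4 (log2 difference -10.88, SE 0.48, adjusted p = 7.39e-05). CYP83B1 and UGT74B1, which act later in the route, held 164 and 95.4 units on average in ein5 dcl4 and had log2 differences of -4.84 and -4.51.

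The rule for the 12 largest decreases also named DGAT3, a soluble diacylglycerol acyltransferase, with 6.83 and 9.5 units in ein5 dcl4 dcl2, against 46406 and 43530 units in ein5 dcl4 (log2 difference -12.27, SE 0.22, adjusted p = 1.11e-05), and AT1G28400, annotated as a GATA zinc finger protein, which had no read in ein5 dcl4 dcl2, against 4401 and 5547 units in ein5 dcl4, and was at least 919-fold lower. Other genes of at least 1000 units in ein5 dcl4 are named here after their values were seen. They include methionine and S-adenosylmethionine synthesis genes (ATMS1, MS2, MTO3 and MAT3), the arginine decarboxylases ADC1 and ADC2, which begin polyamine synthesis, and the polyamine oxidase PAO5. Receptor kinases were among them as well, namely the brassinosteroid receptor BRI1 and its relative BRL2, the CLE peptide receptors BAM1 and BAM3, and PXY, which binds the CLE peptide TDIF. MYB28 and MYB29 encode activators of aliphatic glucosinolate genes. At these 14 genes between 0 and 0.128% of the ein5 dcl4 level was left in ein5 dcl4 dcl2.

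**Figure D3:**
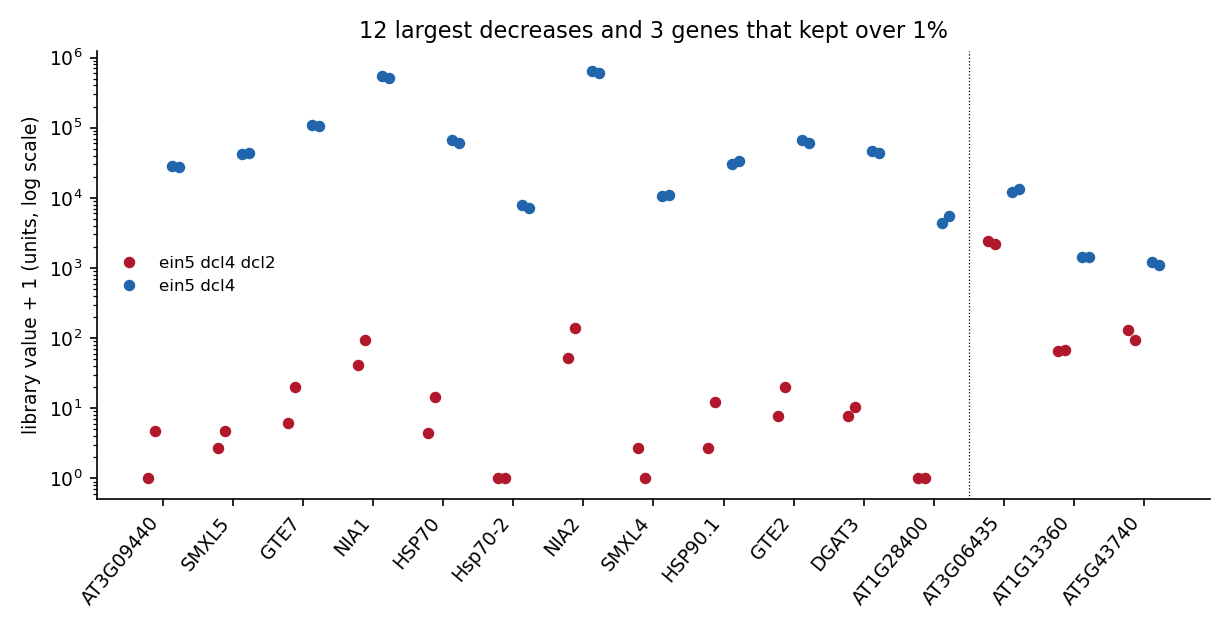
Library values + 1 (units, log scale) in ein5 dcl4 dcl2 and ein5 dcl4 for the 12 largest decreases and, right of the dotted line, the 3 genes of at least 1000 units in ein5 dcl4 that kept over 1% of their level. The genotypes are 3 or more powers of 10 apart at the 12 genes and closer at the other 3.

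Calls of lower were also made far below these genes. Protein-coding genes tested were called lower at 10.2% below 10 units in ein5 dcl4, 79.7% between 10 and 30 units, 94.1% between 30 and 100, 89% between 100 and 300, 96.4% between 300 and 1000, and at all 83 from 1000 units up. The median share of the ein5 dcl4 level left in ein5 dcl4 dcl2 was 83.6%, 6.67%, 4.24%, 2.44% and 0.401% over the same 5 ranges, 0.0721% between 1000 and 10000 units and 0.0335% from 10000 units up. The level in ein5 dcl4 is one side of the comparison, so this is a description. The 10-read filter also shaped the step at 10 units. Below it a gene mostly needed reads in ein5 dcl4 dcl2 to pass, and 4 of 461 genes tested had none. From 10 to 30 units 478 of 1254 had none, and these passed only through ein5 dcl4, which fixed their direction. From 10 to 10000 units, the median ein5 dcl4 dcl2 levels of the ranges lay between 0.95 and 3.61 units, under the limit of 3 reads. The falling shares there follow the rising ein5 dcl4 level and do not show that stronger genes lost a larger part. Sorted by the level in Col-0 instead, 80.4% of the genes under 1 unit in Col-0 were lower, and 54.2%, 17.2%, 24.5% and 34.5% of the genes of 1 to 10, 10 to 30, 30 to 100 and at least 100 units. The 10-read filter used the same 4 mutant libraries, so genes near 0 in Col-0 entered only where a mutant was high, and these shares are fixed in part by that filter and carry no test.

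**Figure D4:**
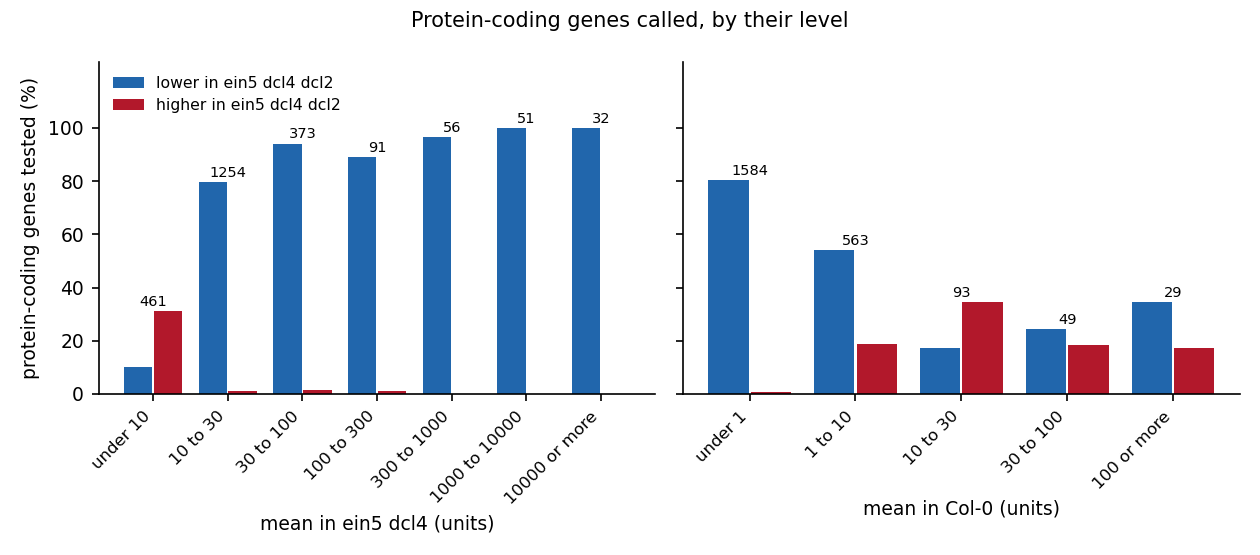
Protein-coding genes tested that were called lower or higher in ein5 dcl4 dcl2 (%), grouped by their mean level in ein5 dcl4 (left panel) or in Col-0 (right panel), with the number tested above each pair of bars. From 1000 units in ein5 dcl4 up, all 83 genes were lower, and under 1 unit in Col-0, 80.4% were, a share that the 10-read filter fixes in part. The same filter shapes the shares of the low ein5 dcl4 ranges.

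The median was 2 exon segments at the 1616 lower genes, 4 at the 540 not called and 4 over all 26712 protein-coding genes of the table, and 30.9%, 23.9% and 20.8% had a single one. Over all 2318 genes tested, called or not, the median was 3 and the share with a single exon 28.9%. The lower genes had a median exonic length of 2002 bases and a median GC content of 41.7%, against 1927 bases and 41.9% for genes not called. A longer gene collects more reads and passes the 10-read filter more easily, and these medians carry no test.

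Of the 83 genes, 3 kept more than 1% of their ein5 dcl4 level. AT3G06435, an uncharacterized gene, had 2414 and 2195 units in ein5 dcl4 dcl2, against 11990.4 and 13199 units in ein5 dcl4, and its Col-0 mean was 12911 units (log2 difference -2.45, SE 0.16, adjusted p = 0.000257, with 18.3% left). Its mean in Col-0 was above that in ein5 dcl4 dcl2, and 69.2% of its 21-base stretches occur elsewhere in the genome. AT5G43740, a disease resistance gene of the CC-NBS-LRR class, had 132 and 93.1 units in ein5 dcl4 dcl2, against 1226 and 1102 units in ein5 dcl4, with a Col-0 mean of 154 units (log2 difference -3.38, SE 0.22, adjusted p = 0.000237). AT1G13360, uncharacterized, had 64.9 and 66.5 units in ein5 dcl4 dcl2, against 1442 and 1428 units in ein5 dcl4 (log2 difference -4.43, SE 0.21, adjusted p = 8.54e-05), with a Col-0 mean of 9.03 units. At all 3 the genotypes still lay apart.

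By rule, the 6 protein-coding genes highest in ein5 dcl4 without a call were AT5G38850, a TIR-NBS-LRR disease resistance gene, AT3G44570, AT2G06555, AT2G16030, AT3G44580 and AT1G18000. AT5G38850 had 721 and 652 units in ein5 dcl4 dcl2, against 862 and 887 units in ein5 dcl4, and a Col-0 mean of 713 units. Both of its ein5 dcl4 dcl2 libraries lay below both of ein5 dcl4. AT3G44570, annotated as a retrotransposon protein, had 769 and 811 units in ein5 dcl4 dcl2, against 875 and 627 units in ein5 dcl4, with overlapping libraries and a Col-0 mean of 1662 units. Their log2 differences were -0.35 (SE 0.15, adjusted p = 0.10) and 0.09 (SE 0.21, adjusted p = 0.713). The remaining 4 lay between -0.48 and 0.33, and all 6 held 49.4 units or more in Col-0. AT2G16030 was called higher with equal table totals (log2 difference 0.79, adjusted p = 0.0187) and without ein5 dcl4 library a (0.57, adjusted p = 0.0249). AT2G06555 was called lower without ein5 dcl4 library b (-0.55, adjusted p = 0.0125). With equal miRNA sums, all 6 were called lower.

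On chromosome 1, 8 tested genes of at least 100 units in Col-0 are annotated as pentatricopeptide or tetratricopeptide repeat proteins, a group formed after its values were seen, and 6 of them were lower, against 10 of all 29 protein-coding genes of that Col-0 level. Pentatricopeptide repeat proteins bind organelle transcripts, and in wild type several of these genes are known to yield phased secondary siRNAs, which DCL4 cuts. AT1G63400 had 3.42 and 1.9 units in ein5 dcl4 dcl2, against 30.6 and 58.6 units in ein5 dcl4, and a Col-0 mean of 1463 units (log2 difference -3.60, SE 0.38, adjusted p = 0.000719). AT1G62914 had 1.71 and 1.9 units in ein5 dcl4 dcl2, against 21.1 and 47.4 units in ein5 dcl4, with 1432 units in Col-0 (log2 difference -3.54, SE 0.39, adjusted p = 0.00087). AT1G62910, AT1G63150, AT1G63130 and RPF3 were lower too, with log2 differences of -4.67, -4.37, -3.68 and -3.56. In ein5 dcl4 dcl2 the first 2 of these had no read, and AT1G63130 and RPF3 had 1 read each. All 6 lower genes passed the 10-read filter only through ein5 dcl4, so their number is not evidence of a direction. The other 2 were not called. AT1G63080 had 37.6 and 30.4 units in ein5 dcl4 dcl2, against 40.2 and 50.2 units in ein5 dcl4 and a Col-0 mean of 1588 units (log2 difference -0.40, SE 0.21, adjusted p = 0.148). AT1G63630 had 8.54 and 11.4 units in ein5 dcl4 dcl2, against 7.66 and 22.3 units in ein5 dcl4, with overlapping libraries and a Col-0 mean of 375 units (log2 difference -0.39, SE 0.53, adjusted p = 0.552). From 47% to 85.1% of the 21-base stretches of the 6 lower genes occur elsewhere in the genome, so the split of reads between them is uncertain.

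Among genes of RNA silencing and decay, 4 of 12 were tested and 2 were lower (median -1.41), against 69.7% lower and a median of -3.10 for all protein-coding genes tested. AGO2, a slicer Argonaute that miR403 targets, had 66.6 and 51.3 units in ein5 dcl4 dcl2, against 417 and 296 units in ein5 dcl4, with 15.9 units in Col-0 (log2 difference -2.57, SE 0.27, adjusted p = 0.000738). DCL1, which cuts miRNA precursors and is itself a target of miR162, had 3.42 and 9.5 units in ein5 dcl4 dcl2, against 15.3 and 25.1 units in ein5 dcl4 (log2 difference -1.60, SE 0.52, adjusted p = 0.0427), a call lost under 10 of 15 alternatives, in which the limma adjusted p ranged between 0.000128 and 0.20. AGO1, the protein precipitated here and a target of miR168, was not called, with 6.83 and 20.9 units in ein5 dcl4 dcl2, against 44 and 16.7 units in ein5 dcl4 (adjusted p = 0.194). The auxin receptors TIR1, AFB2 and AFB3 are cut under the guidance of miR393 and then yield secondary siRNAs, and 2 of these 3 tested genes of 4 listed were lower (median -1.25), a share near the 69.7% and a smaller median than the -3.10 of all protein-coding genes tested. AFB2 had 83.7 and 66.5 units in ein5 dcl4 dcl2, against 180.0 and 178 units in ein5 dcl4 (log2 difference -1.25, SE 0.22, adjusted p = 0.00539). TIR1 had 12 and 3.8 units in ein5 dcl4 dcl2, against 32.6 and 33.5 units in ein5 dcl4 (log2 difference -2.11, SE 0.56, adjusted p = 0.022). Its call was lost in a fit on 4 libraries (adjusted p = 0.0505), without ein5 dcl4 library a (0.117) and without ein5 dcl4 library b (0.12), within a range between 0.00011 and 0.12 over all alternatives. AFB3 was not called, with 95.7 and 91.2 units in ein5 dcl4 dcl2, against 90 and 83.7 units in ein5 dcl4 (log2 difference 0.11, SE 0.35, adjusted p = 0.804). The share of the ein5 dcl4 level left was 41.9% for AFB2 and 23.9% for TIR1. The TAS loci, the best known sources of secondary siRNAs, were not analysed here.

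The miRNA loci moved the other way. Their mature sequences from RefSeq (TAIR10.1, matched by symbol for all 116 loci tested) are shown for the loci that hold most reads, the locus with the largest gain among abundant ones, the largest gains from 0 reads, and the 2 loci that fell, with the seed (bases 2 to 8) in capitals.
miR166e-3p: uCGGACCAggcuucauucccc
miR165b: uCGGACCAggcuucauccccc
miR159b-3p: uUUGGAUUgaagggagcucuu
miR319b: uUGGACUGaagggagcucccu
miR319c: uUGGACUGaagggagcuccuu
miR169n: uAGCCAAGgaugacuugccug
miR856: uAAUCCUAccaauaacuucagc
miR831-3p: uGAUCUCUucguacucuucuug
miR831-5p: aGAAGCGUacaaggagaugagg
miR156b-5p: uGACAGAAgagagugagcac
miR156f-5p: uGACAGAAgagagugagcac
miR166e and miR165b share 1 seed and miR319b and miR319c another, and the 5′ arms of miR156b and miR156f are identical.

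Of the 116 miRNA loci tested, the 103 higher ones stand against 17.3% of all loci tested. The middle 50% of log2 differences ran from 3.07 to 4.80, and the median locus held 13.8 times its ein5 dcl4 level. Loci with an annotated 22-base mature miRNA are given apart: 20 of 23 were higher, with a median of 4.09, against 83 of 93 and 3.79. To see how miRNA loci differed among themselves, they were also compared after scaling the libraries on 76 miRNA loci with reads in all 6, an alternative added after seeing the data. On that scale 43 miRNA loci gained more than the typical one, 22 gained less or fell and 51 were not called, while 4.44% of all loci tested gained more and 81.2% gained less or fell.

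The leaf-polarity miRNAs miR165 and miR166, which target class III HD-ZIP transcription factors, were the largest part of the miRNA pool in each genotype. All 9 tested loci with the seed CGGACCA were higher, and 8 gained more than the typical miRNA locus. Of all 116 miRNA loci tested, 103 were higher and 43 gained more than typical. MIR166e (chr5:16775520-16775662, minus strand) had 372155 and 297200 units in ein5 dcl4 dcl2, against 9999 and 15734 units in ein5 dcl4 (log2 difference 4.73, SE 0.29, adjusted p = 0.000201). MIR165b (chr4:369831-370012, minus strand) had 136437 and 108915 units in ein5 dcl4 dcl2, against 2078 and 2658 units in ein5 dcl4 (log2 difference 5.70, SE 0.23, adjusted p = 5.71e-05), and thus 51.8 times as much. The 9 loci together held 71.4% ± 2.96 in ein5 dcl4 dcl2, 43.5% ± 7.42 in ein5 dcl4 and 64% ± 1.82 in Col-0 of the sum over miRNA loci. The share in the triple mutant was above Col-0 in both libraries, and that in the double mutant below it. MIR166e, MIR166f and MIR166g had nearly equal values, which could come from the same reads. Counted once, the shares were 52.5% ± 3.63 in ein5 dcl4 dcl2, 24.9% ± 5.5 in ein5 dcl4 and 45.6% ± 2.12 in Col-0.

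The miR319 and miR159 families, related in sequence, target TCP and GAMYB-like transcription factors. MIR319b had 5004 and 4912 units in ein5 dcl4 dcl2, against 61.3 and 55.8 units in ein5 dcl4 (log2 difference 6.38, SE 0.15, adjusted p = 1.61e-05), 84.7 times as much, and gained more than the typical locus. MIR319c, whose mature miRNA has the same seed, had 40549 and 50407 units in ein5 dcl4 dcl2, against 9528 and 7086 units in ein5 dcl4 (log2 difference 2.46, SE 0.25, adjusted p = 0.000657) and gained less. Its share of the miRNA sum was 2.75% ± 0.74 in ein5 dcl4 dcl2, 8.37% ± 2.9 in ein5 dcl4 and 4.87% ± 0.441 in Col-0. MIR159b had 127931 and 125594 units in ein5 dcl4 dcl2, against 11138 and 15202 units in ein5 dcl4 (log2 difference 3.28, SE 0.23, adjusted p = 0.000279), a share of 7.6% ± 0.798 in ein5 dcl4 dcl2, 12.9% ± 0.979 in ein5 dcl4 and 9.55% ± 0.0282 in Col-0. Both shares were highest in ein5 dcl4. MIR403, whose target is AGO2, and MIR162b, whose target is DCL1, had log2 differences of 3.54 and 3.79, and MIR168a and MIR168b, which target AGO1, of 3.99 and 3.85. These 4 loci were not called apart from the typical miRNA locus.

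A further 17 families reached 1000 units in a genotype, and 25 of their 26 tested loci were higher, beside 88.8% of all miRNA loci tested. Their summed levels were 7.17 times as high in ein5 dcl4 dcl2 for miR161 at the low end and 47.8 times for miR779 at the high end. miR161, which targets pentatricopeptide repeat genes, had 13926 and 14060.4 units in ein5 dcl4 dcl2, against 2300.0 and 1601 units in ein5 dcl4. miR779 had 3367 and 2597 units in ein5 dcl4 dcl2, against 38.3 and 86.5 units in ein5 dcl4. The libraries of the genotypes lay apart at both ends of this range. miR173, which starts siRNA production from TAS1 and TAS2 transcripts, had 13028 and 8979.7 units in ein5 dcl4 dcl2, against 285 and 413 units in ein5 dcl4. miR396, which targets GRF transcription factors, had 28069 and 20517 units in ein5 dcl4 dcl2, against 1149 and 1383 units in ein5 dcl4. miR393, which targets the auxin receptors, had 2518 and 2177 units in ein5 dcl4 dcl2, against 86.2 and 181 units in ein5 dcl4. Between these ends lay also miR403, miR162, miR168, miR447, miR163, miR158, miR850, miR167, miR773, miR775, miR848 and miR833.

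The 12 largest increases by rule were led by loci with no read in ein5 dcl4. MIR169n, of a family that targets NF-YA transcription factors, had 214 and 133 units in ein5 dcl4 dcl2 and 0 reads in both ein5 dcl4 libraries, at least 24.6-fold higher. MIR399c, whose family targets the phosphate regulator PHO2, had 186 and 100.7 units in ein5 dcl4 dcl2 and 0 reads in ein5 dcl4, at least 20.3-fold higher. MIR169j and MIR169l, also without a read in ein5 dcl4, were at least 19.3-fold and 18.7-fold higher. MIR856 had 167 and 143 units in ein5 dcl4 dcl2 and 0 in every ein5 dcl4 and Col-0 library, at least 22-fold higher than in ein5 dcl4. All 8 tested loci with the seed AGCCAAG, which belong to miR169, were higher by 3.22 to 7.41 on the log2 scale. All 8 also gained more than the typical miRNA locus, beside 103 higher and 43 gaining more among all 116 miRNA loci tested. MIR169j, MIR169l and MIR169n, without a read in ein5 dcl4, passed the read filter only through ein5 dcl4 dcl2, which fixed their direction. The annotated mature miRNAs of MIR169h to MIR169n are identical, so these loci could share reads. The 8 loci are therefore not 8 independent results. The summed share of the 8 loci in the miRNA sum was 0.247% in ein5 dcl4 dcl2, 0.0957% in ein5 dcl4 and 0.155% in Col-0. The 3 other miRNA loci named were MIR847 (378 and 336 units in ein5 dcl4 dcl2, against 0 and 8.37 units in ein5 dcl4), MIR825 (log2 difference 6.29) and MIR864 (5.71). MIR864 was not called on either miRNA scale (adjusted p = 0.0915 and 0.0791). The rule further named AT2G14070 and AT3G59240, protein-coding genes with the same values, 42.7 and 58.9 units in ein5 dcl4 dcl2 and 0 reads in ein5 dcl4, at least 7.2-fold higher. Equal values at both could come from the same reads.

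MIR831 was 1 of the 2 miRNA loci that fell. MIR831 (chr2:10247206-10247462, plus strand) had 707 and 922 units in ein5 dcl4 dcl2, against 9288 and 8601 units in ein5 dcl4, with a Col-0 mean of 47.2 units (log2 difference -3.47, SE 0.39, adjusted p = 0.000917). Both ein5 dcl4 libraries lay above both ein5 dcl4 dcl2 libraries, and all 4 above Col-0 in units. Its share of the miRNA sum was 0.0494% ± 0.0149 in ein5 dcl4 dcl2, 8.92% ± 1.76 in ein5 dcl4 and 0.0308% ± 0.019 in Col-0, with overlapping libraries in ein5 dcl4 dcl2 and Col-0. Its 2 annotated mature miRNAs, shown above, are both 22 bases long. MIR156f had 3.42 and 0 units in ein5 dcl4 dcl2, against 36.4 and 53 units in ein5 dcl4 (log2 difference -4.42, SE 0.77, adjusted p = 0.00512), few reads in every library, and its call was lost without ein5 dcl4 library b (adjusted p = 0.0604; 5.76e-05 to 0.0604 over all alternatives). MIR156b, with the same 5′ mature miRNA, was higher, with 6085 and 8366 units in ein5 dcl4 dcl2, against 4267 and 2407 units in ein5 dcl4 (log2 difference 1.15, SE 0.32, adjusted p = 0.0252), and a share of 0.439% ± 0.148 in ein5 dcl4 dcl2, 3.41% ± 1.78 in ein5 dcl4 and 0.292% ± 0.0372 in Col-0. The sources used here do not say how reads that match several loci were assigned.

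The related miR156 and miR157 hold back the change from juvenile to adult leaves by repressing SPL genes. The seed GACAGAA was held by 6 tested loci, MIR156a, MIR156b, MIR156c, MIR156d, MIR156f and MIR157d. Of these 6, 3 were higher, 1 was lower and 2 were not called, and 5 gained less than the typical miRNA locus or fell. Of all 116 miRNA loci tested, 22 gained less or fell. The summed share of the 6 loci was 0.461% in ein5 dcl4 dcl2, 3.66% in ein5 dcl4 and 0.329% in Col-0. MIR157a, MIR157b and MIR157c likewise gained less than typical, with log2 differences of 0.54, 0.54 and 2.80, and only MIR157c was called higher. MIR157a had 991 and 732 units in ein5 dcl4 dcl2, against 596 and 577 units in ein5 dcl4, close levels that did not overlap (adjusted p = 0.0617). The remaining loci without a call were MIR866, MIR156d, MIR828, MIR156a, MIR845a, MIR167c and 3 MIR395 loci of nearly equal reads. MIR869 and MIR839, whose precursors DCL4 cuts in wild type, were higher. MIR869 had 54.7 and 74.1 units in ein5 dcl4 dcl2, against 3.83 and 2.79 units in ein5 dcl4, and was not called on either miRNA scale (adjusted p = 0.69 and 0.464). MIR839 had 20.5 and 20.9 units in ein5 dcl4 dcl2, against 3.83 and 0 units in ein5 dcl4 (log2 difference 3.30, SE 0.81, adjusted p = 0.0172). The MIR839 call was lost without either ein5 dcl4 dcl2 library and on both miRNA scales (adjusted p from 0.0020 to 0.816 over all alternatives). MIR822, the third locus of that kind, had 6.83 and 7.6 units in ein5 dcl4 dcl2, 0 reads in ein5 dcl4 and 80.7 units in Col-0, too few reads in the mutants to be tested.

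**Figure D5:**
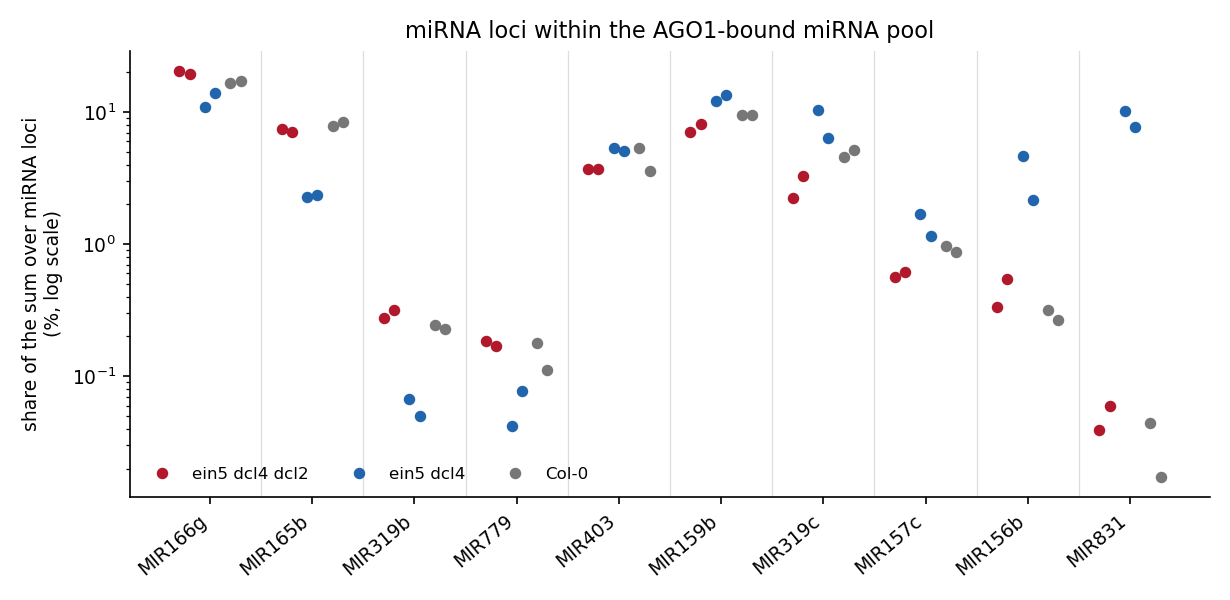
Share of the sum over miRNA loci (%, log scale) of 10 miRNA loci in each library of ein5 dcl4 dcl2, ein5 dcl4 and Col-0. MIR831 and MIR156b had their highest shares in ein5 dcl4, at 8.92% and 3.41%, and MIR165b and MIR319b their lowest.

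Most pseudogenes were not called. Of 1569 tested, 402 were higher, 65 lower and 1102 not called (median log2 difference 0.67), and 258 were higher without ein5 dcl4 dcl2 library a. Summed over the 1569, the level was 30535 units in ein5 dcl4 dcl2, 22591 in ein5 dcl4 and 33323 in Col-0. Pseudogenes are the majority of the loci that set the size factors, and relative to miRNA loci 1144 were lower and 66 higher, so no direction is given for the class. AT4G04409, a pseudogene, had 357 and 291 units in ein5 dcl4 dcl2, against 7.66 and 5.58 units in ein5 dcl4 (log2 difference 5.42, adjusted p = 0.000191). Of 28 plastid loci tested 7 were higher and 3 lower, and of 45 mitochondrial loci 4 were higher and 9 lower, against 17.3% higher and 40.8% lower of all loci tested. An example of each, like AT4G04409 chosen after its values were seen, follows. The plastid gene ATCG00020 had 415 and 357 units in ein5 dcl4 dcl2, against 82.3 and 119.9 units in ein5 dcl4 (log2 difference 1.94, SE 0.24, adjusted p = 0.00133). The mitochondrial ATMG00660 had 5.12 and 0 units in ein5 dcl4 dcl2, against 61.3 and 16.7 units in ein5 dcl4 (log2 difference -3.75, SE 0.99, adjusted p = 0.0222).

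Protein-coding genes that were higher in ein5 dcl4 dcl2 were few, 162 of 2318 (6.99%, against 17.3% of all loci). By rule, the 6 protein-coding genes with the highest level there were AT3G06435, AT3G44570, AT5G38850, HTA4, RAP2.4 and AT2G16030. HTA4, a histone H2A gene, had 304 and 266 units in ein5 dcl4 dcl2, against 13.4 and 11.2 units in ein5 dcl4 (log2 difference 4.43, SE 0.35, adjusted p = 0.000313), and it overlaps MIR841a, so reads of that miRNA may be counted at it. RAP2.4, an AP2/ERF transcription factor, had 316 and 226 units in ein5 dcl4 dcl2, against 128 and 131 units in ein5 dcl4 (log2 difference 1.04, SE 0.25, adjusted p = 0.0155), with 16 units in Col-0, but was lower on both miRNA scales. Its call was lost without ein5 dcl4 dcl2 library a and without either ein5 dcl4 library (adjusted p between 0.0569 and 0.0737). On the same miRNA scales HTA4 was not called, with log2 differences of 0.48 (adjusted p = 0.343) for equal miRNA sums and 0.68 (0.182) for miRNA size factors. Of the 6 genes, HTA4 and RAP2.4 were called higher on the main scale and AT3G06435 lower.

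In the authors' deposited table, which gives ein5 dcl4 over ein5 dcl4 dcl2, 683 of 4461 loci with an adjusted p were lower and 186 higher in ein5 dcl4 dcl2 at an adjusted p under 0.05. Of those 683 in the authors' deposited table, 680 were also called lower here, and all 186 were also called higher here. Calls here numbered 1708 lower and 723 higher, so most of them were not calls of the authors. DCL1, TIR1, MIR839 and RAP2.4, called here, were above 0.05 there. Both sets of calls come from the same libraries, so the overlap is not independent evidence.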

How the data were processed

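AGO1-bound small RNAs were sequenced from 2 libraries of each of 3 genotypes. The submitters' processing notes name SAMtools 1.9, Bowtie 1.2.2, DESeq2 and genome build TAIR10 without their roles, and per the labels' protocols only Read1 of each pair was kept. The authors deposited 1 value per locus and genotype, a signal that the file header calls TPM. Every value above 0 was the mean of 2 libraries of whole reads divided by median-of-ratios size factors, within a relative tolerance of 1e-14 (100% of values), and the reads of libraries a and b were recovered. Nothing ties a and b to replicate numbers. The sources used here give neither read lengths, nor strand, nor how reads matching several loci were counted. The authors' own log2 fold changes, with p-values before and after adjustment, were deposited beside them.

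Loci with at least 10 reads over the 4 libraries (4189 of 32420) were tested on log2(value + 1) with limma 3.58.1 (R 4.3.3), a scale that understates changes of low loci. The fit used all 6 libraries, a mean per genotype and a trended prior (3 residual and 2.58 prior degrees of freedom), two-sided, with Benjamini-Hochberg adjustment over all loci tested and a threshold of 0.05. The fit was also run on simulated data in which fewer loci changed between the mutants than were called here, and no result rests on that run. Classes, gene positions and mature miRNAs came from RefSeq (TAIR10.1), which held 31722 of the loci. The table's 488 nuclear loci with no RefSeq entry were kept as a class of their own.

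Named loci were the 12 largest changes in each direction among calls without overlap of libraries whose mean reached 10 units. To these were added the 6 protein-coding genes highest in ein5 dcl4 and not called lower, the 6 highest in ein5 dcl4 dcl2, miRNA loci that fell, miRNA families of at least 1000 units, from each list the 4 members of smallest adjusted p at most, the mutated loci, AGO1, and the siRNA loci that the study picked. Further members of the lists are given by counts or chosen for their role. The members and lists were chosen with earlier results of these data known. The alternatives were trimmed-mean rescaling, equal table totals, equal miRNA sums, size factors from 4 libraries or from miRNA loci, pseudocounts of 0.5 and 5, other filters, a fit on 4 libraries, limma voom and leaving out each library.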

Additional observations from a re-analysis of the deposited data

How the results depend on the processing

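No paired analysis was possible because nothing ties the recovered libraries to replicate numbers. With 2 libraries a genotype the spread is poorly known, and loci under about 10 units rest on few reads. Leaving out 1 library in turn, with the lone sample assumed to vary like the other groups, gave 1290 to 1678 loci lower and 513 to 802 higher, against 1708 and 723. Pseudogenes higher numbered 258 to 466, 258 without ein5 dcl4 dcl2 library a. The miRNA loci lower numbered 1 to 3, nitrate assimilation genes lower 5 to 8 (5 without ein5 dcl4 library b), silencing and decay genes lower 1 to 2, auxin receptors lower 1 to 2 and DCL4-cut miRNA loci higher 1 to 2. Cutoffs moved the counts through the number of loci tested. Any locus with a read gave 4528 lower and 1274 higher (protein-coding 4417 and 372, pseudogenes higher 662). A mean of 1 unit gave 4092 and 1287 (protein-coding 3969 and 355, pseudogenes higher 694). With at least 50 reads they were 407 and 176 (protein-coding 360 and 23, pseudogenes 35 and 60), with 1 miRNA locus lower and 1 DCL4-cut locus higher, and 4 nitrate, 4 SMXL, 8 HSP70, 2 GTE, 1 silencing and 1 auxin receptor gene lower.

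Pseudogenes lower, 65 as reported, numbered 20 with trimmed-mean rescaling, 22 with equal table totals, 33 with size factors from 4 libraries, 19 with a fit on 4 libraries and 38 with limma voom, and 1 silencing gene was lower in each. The fit on 4 libraries called 478 loci and 218 pseudogenes higher and 1 auxin receptor lower. Protein-coding genes lower were 6.29% under 10 units and 74.7% from 10 to 30 with trimmed-mean rescaling, and 3.9%, 69.3% and, from 30 to 100 units, 90.62% with equal totals. Equal miRNA sums gave 3440 loci lower and 173 higher. By class these were 25 miRNA loci, 1172 pseudogenes and 4 silencing genes lower, and 40 miRNA loci, 53 protein-coding genes, 64 pseudogenes and 0 DCL4-cut loci higher. Size factors on miRNA loci gave 3401 and 186, with 22, 1144 and 4 lower and 43, 58, 66 and 0 higher in the same order. Both miRNA scales thus left 0 DCL4-cut loci called by limma, with 0 and 0 at an unadjusted p under 0.05. Without the 10 largest loci the miRNA share of ein5 dcl4 dcl2 was 84.6%, the protein-coding shares of ein5 dcl4 dcl2 and ein5 dcl4 5.81% and 93.1%, and the pseudogene shares 8.31% and 2.43%.

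Log2 differences that changed sign were 0.10, 0.22 and 0.0278 for AT3G44580 with trimmed-mean rescaling, equal totals and 4-library size factors, and 0.0732 for AT2G06555 and 0.12 for AT5G38850 with equal totals. With equal miRNA sums and miRNA size factors they were -3.86 and -3.69 for AFB3, -2.98 and -2.79 for RAP2.4, -3.70 and -3.51 for AT2G16030, and -3.94 and -3.75 for AT3G44570, which ran from -0.15 (without ein5 dcl4 library b) to 0.33 when 1 library was left out. DCL1 lost its call under most alternatives, TIR1 in the 4-library fit and without ein5 dcl4 library a or b, RAP2.4 without each of 3 libraries in turn, MIR156f without ein5 dcl4 library b, and MIR839 without either ein5 dcl4 dcl2 library. HTA4, MIR864, MIR869 and MIR839 lost theirs on both miRNA scales. AT2G16030 gained a call with equal totals and without ein5 dcl4 library a, and AT2G06555 without ein5 dcl4 library b. On both miRNA scales AGO1, DCL4, AT1G18000, AT2G06555, AT3G44580 and AT5G38850 were called lower. The cause was not tested, other than the scale or the loci tested that define each alternative.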
